A study of Mus musculus with 15 samples.

Results

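The complement and coagulation proteins made by hepatocytes were described here through the mRNA of 39 genes, chosen by gene symbol: 15 of complement, 22 of coagulation and fibrinolysis, and 2 inhibitors that act in both systems. All 39 were found among the 23420 gene symbols of the count tables, and all 39 were among the 12193 genes with enough counts to be tested. The RNA was polyA RNA of pulverized left liver lobe from male C57Bl/6J mice, an inbred strain, with 5 libraries in each of 3 diet groups. The MCD group had a diet of 31% fat deficient in methionine, choline and folate. The HFD group had a high-fat diet of 31% fat. The BD group had a base diet of 4% fat. All 15 libraries came from mice given the vehicle alone (5% Alkmauls El-620 in saline) and were taken 24 h after it. The labels give no age, and since they name no separate animals, a p-value here reflects the variation among libraries, which may be technical. The titles number the BD libraries apart from the others; a batch along those numbers and the base diet cannot be told apart.

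Complement is a set of plasma proteases and binding proteins that tag microbes and damaged cells and, at its end, assemble a pore in membranes. Coagulation is a chain of plasma proteases that ends with thrombin cutting fibrinogen into fibrin, and fibrinolysis dissolves the clot through plasmin. Hepatocytes make most of the proteins of both systems and secrete them into blood, and several of them, fibrinogen and C3 included, belong to the acute phase proteins.

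The mRNAs of fibrinogen, of fibrinolysis and of several clotting factors, inhibitors and complement proteins were lower on the MCD diet than on the base diet. Of the 39 members, 19 fell and 1 rose (edgeR's quasi-likelihood test, adjusted p under 0.05 over the 12193 genes), which is 48.7% lower, against 8.64% of all genes lower and 21.4% called in either direction. The members were chosen with earlier results of these data known. Their share beside that of all genes, here and below, is therefore no independent evidence of an excess. The fall took in 13 of 22 coagulation members, with all 3 fibrinogen chains and all 4 fibrinolysis members among them, 5 of 15 complement members, and vitronectin of the 2 shared inhibitors. On the HFD diet 1 member was lower and 1 higher than on the base diet. That is 5.13% of the members, a share near the 6.92% of all genes. Unless another tool, setting or left-out library is named, every adjusted p below is from this edgeR test. Fold changes are log2 with their SE, and levels are CPM, gene counts relative to the library size after TMM scaling. In bulk tissue, fewer hepatocytes and less of an mRNA per hepatocyte cannot be told apart.

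Mean summed levels of the complement, coagulation and fibrinogen members stood in the order MCD, HFD, BD from low to high. The coagulation members, fibrinogen included, summed to a mean of 25100 CPM in MCD, 33830 CPM in HFD and 35670 CPM in BD. Their HFD libraries, from 27000 to 42120 CPM, overlapped both MCD (20910 to 28210 CPM) and BD (33130 to 37340 CPM). The 19 coagulation members other than fibrinogen summed to 11690, 14310, 14390, 14080 and 14090 CPM in the MCD libraries, to 15130, 15050, 16660, 16450 and 15970 CPM in the HFD libraries and to 17750, 17430, 18020, 17370 and 17370 CPM in the BD libraries. No library of one diet overlapped those of another in this sum, which leaves fibrinogen out. The 3 fibrinogen chains summed to 11390 ± 2010 CPM in MCD, 17980 ± 5200 CPM in HFD and 18080 ± 1670 CPM in BD (SD, n = 5 each), and the HFD libraries spread across both other diets. The 15 complement members summed to 14000 ± 1620 CPM in MCD, 16830 ± 1350 CPM in HFD and 18530 ± 923 CPM in BD (SD, n = 5 each). Their MCD libraries ended at 15860 CPM, below the lowest BD library at 17620 CPM, and the HFD libraries, from 15240 to 18410 CPM, overlapped both. All 39 members together took 4.42% ± 0.347 of gene counts in MCD, 5.41% ± 0.522 in HFD and 5.53% ± 0.213 in BD (SD, n = 5 each). These sums carry no test.

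**Figure D1:**
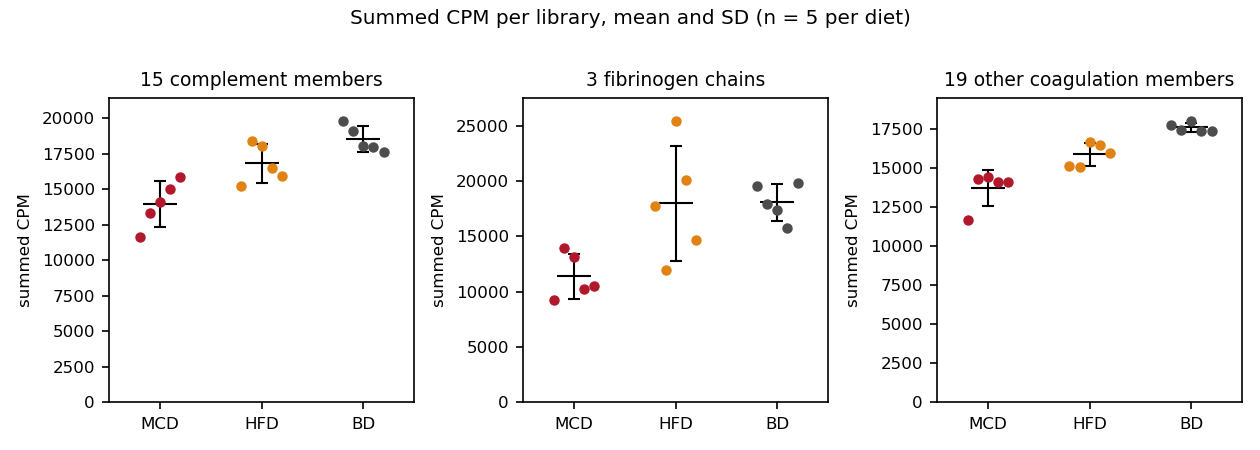
Summed CPM (y axis, from 0) of the 15 complement members, the 3 fibrinogen chains and the 19 other coagulation members in each library, by diet on the x axis; points are libraries, bars are the mean and SD of 5 libraries. The other coagulation members separate the 3 diets without overlap, while fibrinogen spreads widely in HFD. With fibrinogen added, the coagulation sum of HFD overlaps both other diets (not shown).

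The libraries held between 3704642 and 23131089 gene counts (median 10312311), and a member had 251 to 186718 counts in a library. Counting error is larger for the members and libraries with few counts. Thinning all libraries to the shallowest depth ended calls of F7 and Hrg, given with each gene. The hepatocyte identity of the tissue was plain: Alb, which encodes albumin, averaged 107000 ± 16600 CPM in MCD, 95900 ± 10200 CPM in HFD and 106000 ± 8240 CPM in BD, and Asgr1, the hepatocyte asialoglycoprotein receptor, averaged 471, 473 and 466 CPM in MCD, HFD and BD. Alb and Asgr1 were the only hepatocyte markers with a log2 fold change above 0 in MCD against BD. The 9 markers ran from -1.56 to 0.02, with a median of -0.30. Of the 9, 3 were called lower in MCD than in BD, Cps1 at -1.56, Arg1 at -0.78 and Hnf4a at -0.37. The first 2 were also lower in HFD. Macrophage markers moved with the diets: 8 of 9 were higher in MCD than in BD, and their summed level was 444 to 562 CPM in MCD, 314 to 457 CPM in HFD and 206 to 369 CPM in BD. Stellate cell markers summed to 408 to 553 CPM in MCD, 321 to 393 CPM in HFD and 250 to 332 CPM in BD, with 5 of 6 higher in MCD than in BD. No macrophage or stellate cell marker averaged 0 in any diet. Endothelial markers, 3 of 6 higher in MCD than in BD, summed to 295 to 313 CPM in MCD, 231 to 272 CPM in HFD and 233 to 301 CPM in BD. Bile duct markers, 1 higher and 1 lower of 4, summed to 78.6 to 254 CPM in MCD, 58.8 to 193 CPM in HFD and 56.5 to 96.0 CPM in BD. Platelet markers summed to 2.56 to 6.16 CPM over the 15 libraries, neutrophil markers to 0.283 to 2.48 CPM and lymphocyte markers to 2.16 to 5.19 CPM. The part of these other cells in the lower levels of the members was not tested. Beside these marker counts, 12.8% of all genes were higher and 8.64% lower in MCD than in BD.

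HFD replicate 2 stood apart from the other HFD libraries. On the first principal component, which held 37.1% of the variance, it lay at 28.4, within the MCD libraries (15.6 to 39.4) and away from the other HFD libraries (-12.7 to -0.415). It had the lowest HFD value for 23 of the 39 members. Without it, Klkb1, Masp2 and Serpinf2 were lower in MCD than in HFD, with log2 fold changes of -0.47, -0.36 and -0.38 (adjusted p = 0.0206, 0.0377 and 0.0318), against -0.43, -0.34 and -0.30 with it (0.0599, 0.0735 and 0.183). Because HFD replicate 2 was picked out for lying among the MCD libraries, leaving it out favours a wider gap between these 2 diets. Calls gained without it, here and below, are therefore no added evidence. The share of all genes lower in MCD than in HFD rose too, from 0.927% to 3.31%. In HFD replicate 2 the 18 acute phase genes outside the 39 summed to 20400 CPM, against 13100 to 14400 CPM in the other HFD libraries. The other calls that leaving out HFD replicate 2 changed are given with each gene.

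Fibrinogen is the soluble precursor of fibrin, a hexamer of paired alpha, beta and gamma chains from the neighbouring genes Fga, Fgb and Fgg, which lie within 42.1 kb (GRCm38, chr3:83007724-83049863). All 3 chains fell in MCD against BD. Fga had 3640, 5430, 5340, 4010 and 4340 CPM in the MCD libraries, 7490, 4880, 10500, 8100 and 5750 CPM in the HFD libraries, and 8340, 7770, 7310, 6490 and 7930 CPM in the BD libraries. Every MCD library lay below every BD library for Fga, with a log2 fold change of -0.73 ± 0.17 (adjusted p = 0.00446). Fgb had 3010, 4110, 4200, 3460 and 3370 CPM in MCD, 5510, 3850, 7780, 6510 and 4760 CPM in HFD, and 5690, 5540, 5350, 4930 and 6470 CPM in BD. For Fgb too the MCD and BD libraries did not overlap (log2 fold change -0.62 ± 0.15, adjusted p = 0.00646). Fgg had 2570, 4370, 3570, 2760 and 2770 CPM in MCD, 4710, 3230, 7170, 5510 and 4130 CPM in HFD, and 5550, 4600, 4690, 4350 and 5400 CPM in BD. One MCD library of Fgg, replicate 2 at 4370 CPM, reached just above the lowest BD library at 4350 CPM. The log2 fold change of Fgg was -0.62 ± 0.18 (adjusted p = 0.0228), and the call ended without MCD replicate 1 (adjusted p = 0.0671), MCD replicate 4 (0.0616), MCD replicate 5 (0.0615) or BD replicate 1 (0.0635).

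Against HFD, Fga and Fgb were also lower in MCD, by -0.69 ± 0.17 (adjusted p = 0.0354) and -0.65 ± 0.15 (adjusted p = 0.0296), and Fgg was at -0.63 ± 0.18 (adjusted p = 0.0685). In none of the 3 did the MCD and HFD libraries separate: HFD replicate 2 lay among the MCD values of all 3 chains, and HFD replicate 5 among those of Fgg. Both calls depended on single libraries. The Fga call ended without HFD replicate 1, 3 or 4 (adjusted p = 0.072, 0.0966 and 0.104) or MCD replicate 1, 4 or 5 (0.0994, 0.0885 and 0.0739). The Fgb call ended without the same libraries (0.0583, 0.0851 and 0.0952 for HFD, 0.0856, 0.0748 and 0.0658 for MCD). With a term in the model for the non-unique alignments of each library Fga was at -0.47 and Fgb at -0.39 (adjusted p = 0.163 and 0.145), and with the 2 diets alone the adjusted p was 0.0817 and 0.0716. Without HFD replicate 2 all 3 chains were lower in MCD than in HFD, Fgg with a log2 fold change of -0.73 (adjusted p = 0.0103). Between HFD and BD the 3 chains differed by -0.04, 0.02 and 0.01 on the log2 scale, with 95% intervals of -0.40 to 0.31 for Fga, -0.30 to 0.34 for Fgb and -0.38 to 0.39 for Fgg.

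The 3 chains fell together, so the 150 bases before their starts are shown as RefSeq gives them in GRCm38.p6 (Fga chr3:83026003-83026152, plus strand; Fgb chr3:83049864-83050013, minus strand; Fgg chr3:83007574-83007723, plus strand), with that of C4bp (chr1:130661619-130661768, minus strand), the single member that rose. RefSeq starts need not coincide with the GENCODE starts used for the gene positions. Capitals mark matches on either strand to the letters GTTAAT (a core of the HNF1 site), TTGCNNAA (C/EBP) or CTGGGAA (the type 2 interleukin-6 response element); the first pair of factors are known as activators of liver genes, and the last motif binds STAT3.
Fga: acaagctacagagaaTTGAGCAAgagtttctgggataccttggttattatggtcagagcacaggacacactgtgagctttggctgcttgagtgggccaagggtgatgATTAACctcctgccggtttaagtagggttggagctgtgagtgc
Fgb: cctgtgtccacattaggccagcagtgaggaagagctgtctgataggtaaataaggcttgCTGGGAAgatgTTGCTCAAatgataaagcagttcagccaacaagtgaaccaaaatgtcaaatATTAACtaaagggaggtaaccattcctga
Fgg: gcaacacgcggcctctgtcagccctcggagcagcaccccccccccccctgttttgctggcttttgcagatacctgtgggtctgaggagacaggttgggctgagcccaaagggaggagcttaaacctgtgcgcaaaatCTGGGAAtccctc
C4bp: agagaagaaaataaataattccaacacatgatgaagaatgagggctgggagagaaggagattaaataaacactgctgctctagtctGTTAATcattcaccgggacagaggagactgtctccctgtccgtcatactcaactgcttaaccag
In these windows Fga held a C/EBP match and an HNF1 match, Fgb held all 3 kinds, Fgg held only the interleukin-6 motif close to its start, and C4bp held only an HNF1 match.

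Promoters were at hand for 30 of the 39 members, and 250 bases before the start were searched on both strands. GTTAAT was in 8 of the 30 and in 7.49% of 27025 genes of the table. Of the 8, 6 were among the 17 promoters of members lower in MCD, 1 was C4bp and 1 was among the 12 of members not called. TTGCNNAA was in 8 of the 30 (10.8% of all genes), 5 of them lower in MCD and 3 not called. TTCNNNGAA, the general STAT motif, was in 6 (8.13%), and it overlaps CTGGGAA where TTCCCAGAA stands, as in F9 and Masp2. CTGGGAA was in 4 (10.4%), the HNF4 motif CAAAGTNCA in 1, F9 (1.4%), and TATAAA in 2, Klkb1 and Vtn (14.3%). A match describes the letters only.

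The proteases that act before fibrinogen moved unevenly. F7 encodes factor VII, which with tissue factor starts clotting after injury, and it was the member with the smallest adjusted p. It had 48.6, 62, 62.4, 56.7 and 63.6 CPM in the MCD libraries, 86.6, 70.4, 85.1, 78.4 and 76.6 CPM in the HFD libraries, and 99.4, 101, 117, 121 and 88.8 CPM in the BD libraries. The 3 diets did not overlap, with MCD lowest and BD highest. F7 fell by 0.85 ± 0.10 on the log2 scale in MCD against BD (adjusted p = 2.41e-05), by 0.41 ± 0.10 in HFD against BD (adjusted p = 0.0176) and by 0.44 ± 0.10 in MCD against HFD (adjusted p = 0.0262). It was the one member called in all 3 comparisons, of which the first 2 share the BD libraries. The HFD call ended without HFD replicate 2 (adjusted p = 0.0624), BD replicate 3 (0.0569) or BD replicate 4 (0.058). The call between MCD and HFD ended without any one of HFD replicates 1, 3, 4 and 5 or MCD replicates 1 and 4, with adjusted p from 0.0542 to 0.0844. It also ended with the non-unique alignment term (0.0514) and with counts thinned to one depth (0.0948), and thinning ended the HFD call too (0.0841).

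F10, which encodes factor X, the protease that activates prothrombin, fell by 0.49 ± 0.11 in MCD against BD (adjusted p = 0.00398). Its libraries ran from 322 to 458 CPM in MCD and from 484 to 631 CPM in BD, without overlap, and from 410 to 588 CPM in HFD. F7, F10 and Proz are neighbours within 50 kb (GRCm38, chr8:13026034-13076026), and all 3 were lower in MCD than in BD. The other 4 clotting factors were not called in any comparison. F2, prothrombin, averaged 1783 ± 167 CPM in MCD, 2038 ± 66.0 CPM in HFD and 2108 ± 167 CPM in BD (SD, n = 5 each), with a log2 fold change of -0.24 for MCD against BD (95% interval -0.43 to -0.06, adjusted p = 0.059). DESeq2 and limma-voom called it (adjusted p = 0.0228 and 0.045), as did edgeR without BD replicate 5 (0.0279) or with the non-unique alignment term (0.048). F9, factor IX, averaged 258, 289 and 262 CPM in MCD, HFD and BD, and its interval for MCD against BD was -0.20 to 0.16. F5, the cofactor of factor X, differed by 0.04 (interval -0.25 to 0.32) between MCD and BD, and F13b, the carrier chain of the clot-crosslinking factor XIII, by -0.09 (interval -0.30 to 0.11).

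The contact system starts clotting on charged surfaces and releases bradykinin. Of its 4 members, Klkb1, which encodes plasma prekallikrein, fell in MCD against BD (log2 fold change -0.49 ± 0.12, adjusted p = 0.00664). Its libraries held 154, 178, 231, 207 and 188 CPM in MCD, 226, 215, 283, 296 and 270 CPM in HFD, and 323, 248, 278, 232 and 270 CPM in BD, and MCD and BD missed each other by the narrow step between 231 and 232 CPM. Its neighbour F11, factor XI, was at 102 ± 16.2 CPM in MCD, 110 ± 29.7 CPM in HFD and 105 ± 10.4 CPM in BD (SD, n = 5 each). F12, factor XII, spread widely, from 247 to 473 CPM in MCD, 375 to 503 CPM in HFD and 292 to 650 CPM in BD (MCD against BD -0.43, adjusted p = 0.166). It was called by edgeR without BD replicate 5 (-0.57, adjusted p = 0.037) or with the non-unique alignment term (-0.69, adjusted p = 0.0263). Kng1, the kininogen that carries bradykinin, was at -0.23 in MCD against BD (adjusted p = 0.0763) and was called without MCD replicate 2 (-0.28, adjusted p = 0.0253) or by DESeq2 (adjusted p = 0.038). Reads that match both Kng1 and its near-identical copy Kng2 are not in either count, so the level of Kng1 is uncertain.

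**Figure D2:**
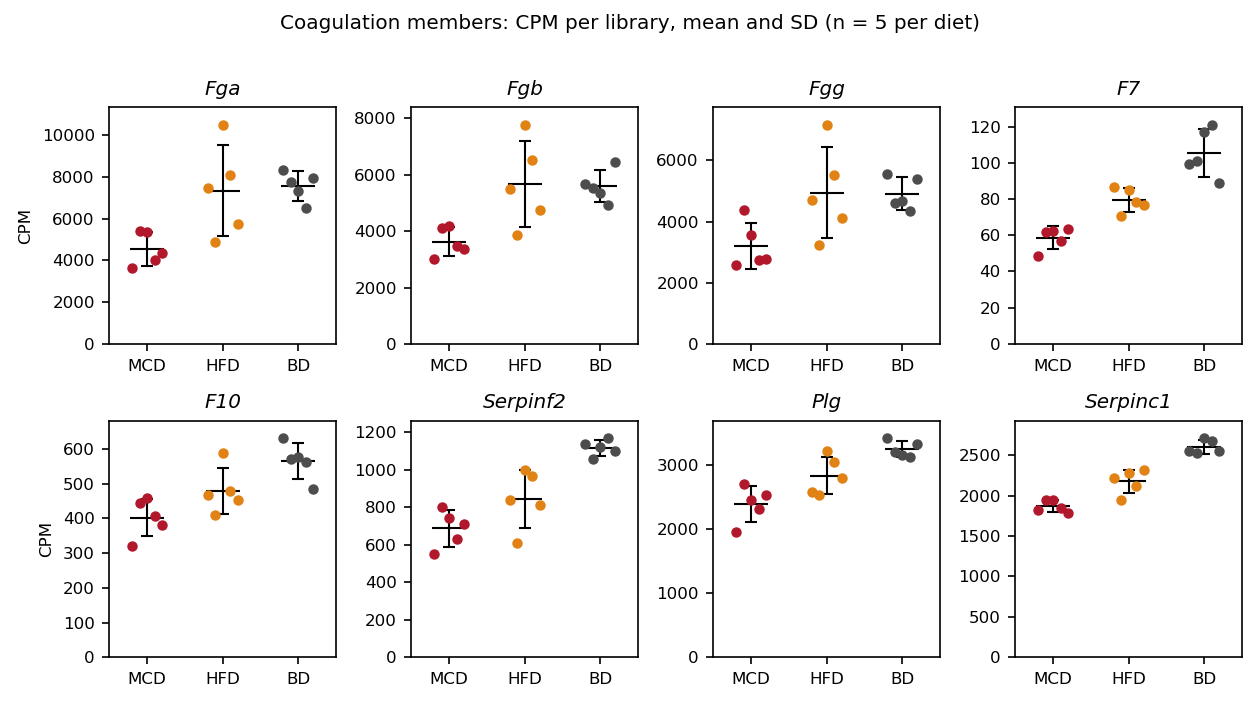
CPM per library (y axis, from 0) of 8 coagulation members by diet, with the mean and SD of 5 libraries. F7 steps down across the diets without overlap, at 48.6 to 63.6 CPM in MCD, 70.4 to 86.6 CPM in HFD and 88.8 to 121 CPM in BD.

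Of the 5 members that restrain clotting, 3 fell in MCD against BD. Serpinc1, antithrombin, the main inhibitor of thrombin and factor X, had 1820, 1950, 1950, 1850 and 1790 CPM in the MCD libraries, 2220, 1950, 2280, 2120 and 2310 CPM in the HFD libraries, and 2550, 2520, 2710, 2680 and 2550 CPM in the BD libraries. The BD libraries lay above all others. Serpinc1 fell by 0.47 ± 0.08 in MCD against BD (adjusted p = 0.000326), and its HFD difference from BD, -0.26 ± 0.08, just missed the threshold (adjusted p = 0.0534). Serpind1, heparin cofactor II, a thrombin inhibitor, fell by 0.41 ± 0.10 in MCD against BD (adjusted p = 0.00463), at 553 ± 38.6 CPM in MCD, 592 ± 70.8 CPM in HFD and 737 ± 69.1 CPM in BD (SD, n = 5 each). Proz, which encodes protein Z, a cofactor in the inhibition of factor X, fell by 0.47 ± 0.13 in MCD against BD (adjusted p = 0.0137, but 0.0508 without BD replicate 1). Proc, protein C, which when activated cuts factors V and VIII, was at -0.29 (adjusted p = 0.149) and was called without BD replicate 5 (-0.39, adjusted p = 0.0399). Its cofactor Pros1, protein S, was at -0.10 (interval -0.35 to 0.14).

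All 4 fibrinolysis members were lower in MCD than in BD. Serpinf2, alpha-2-antiplasmin, the main inhibitor of plasmin, had 550, 801, 746, 634 and 714 CPM in MCD, 838, 611, 1000, 968 and 812 CPM in HFD, and 1140, 1060, 1120, 1170 and 1100 CPM in BD. All BD libraries lay above all MCD and all HFD libraries. Serpinf2 fell by 0.70 ± 0.12 on the log2 scale in MCD against BD (adjusted p = 0.000549), and HFD against BD stood at -0.40 ± 0.12 (adjusted p = 0.0554). Plg, plasminogen, the precursor of plasmin, fell to 2395 ± 280 CPM in MCD, with 2839 ± 294 CPM in HFD, against 3244 ± 125.7 CPM in BD (SD, n = 5 each; -0.44 ± 0.10 for MCD against BD, adjusted p = 0.00335). Cpb2 encodes a carboxypeptidase that slows fibrinolysis, and it fell by 0.47 ± 0.13 (adjusted p = 0.0121, but -0.30 and 0.0753 with the non-unique alignment term). Hrg, histidine-rich glycoprotein, which binds plasminogen and heparin, fell by 0.37 ± 0.12 (adjusted p = 0.0373). Without scaling factors Hrg was at -0.23 (adjusted p = 0.193; 0.052 with no count filter, 0.056 with the 2 diets alone and 0.0725 with thinned counts). The Hrg call ended when any one of 8 libraries was left out (HFD replicate 3, MCD replicates 1, 2 and 3, BD replicates 1 to 4), with adjusted p from 0.0589 to 0.116.

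Of the 5 terminal complement members, 2 fell in MCD against BD. C6, C8 and C9 join C5b in the membrane attack complex, and C8 is made of alpha, beta and gamma chains from C8a, C8b and C8g. C8b had 123, 305, 290, 188 and 272 CPM in the MCD libraries, 357, 141, 572, 645 and 369 CPM in the HFD libraries, and 484, 572, 411, 417 and 640 CPM in the BD libraries. Every MCD library lay below every BD library, and HFD replicate 2 lay among the MCD libraries. C8b was at -1.10 ± 0.34 on the log2 scale for MCD against BD, with a wide 95% interval of -1.84 to -0.36 (adjusted p = 0.035). With the non-unique alignment term it was at -0.60 (adjusted p = 0.144), and with no count filter its adjusted p was 0.0652. Its call ended without MCD replicate 1, 4 or 5 (adjusted p = 0.0785, 0.0832 and 0.0532) or BD replicate 1, 2 or 5 (0.0542, 0.0701 and 0.071). C8a, its neighbour on chromosome 4, had 514, 786, 838, 742 and 831 CPM in MCD, 977, 884, 1280, 1300 and 949 CPM in HFD, and 1160, 1180, 904, 852 and 1230 CPM in BD. MCD lay below both other diets without overlap. C8a fell by 0.52 ± 0.15 against BD (adjusted p = 0.0168, but 0.05 without MCD replicate 1 and 0.0524 without BD replicate 1), and stood at -0.54 ± 0.15 against HFD (adjusted p = 0.0545).

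The third chain, C8g, ran from 188 to 372 CPM in MCD, 263 to 298 CPM in HFD and 289 to 327 CPM in BD, and was not called (MCD against BD -0.27, adjusted p = 0.151). In 1 of 25 settings, without MCD replicate 2, C8g was called lower (-0.44, adjusted p = 0.00173). That library held the highest MCD value, so leaving it out favours a larger fall and the call is no added evidence. The same holds for Kng1 and Mbl2, highest in that MCD library too. It also holds for F2, F12 and Proc without BD replicate 5, which had their lowest BD value. C6 ran from 161 to 319 CPM in MCD, 330 to 504 CPM in HFD without replicate 2, which lay far lower, and 277 to 470 CPM in BD, at -0.55 for MCD against BD (adjusted p = 0.22). C9, which forms the wall of the pore, averaged 502 ± 94.0 CPM in MCD, 613 ± 200 CPM in HFD and 640 ± 164 CPM in BD (SD, n = 5 each), at -0.35 (adjusted p = 0.261). HFD replicate 2 held the lowest HFD value of all 5 terminal members. Without it C8a, C8b and C6 were lower in MCD than in HFD, with log2 fold changes of -0.58, -1.03 and -0.71 (adjusted p = 0.0204, 0.0203 and 0.0459).

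C3 is the central protein on which all routes of complement activation meet. It had 5760, 5850, 7280, 8670 and 8920 CPM in the MCD libraries, 7460, 11100, 9000, 7460 and 8180 CPM in the HFD libraries, and 11500, 10500, 10600, 10800 and 8810 CPM in the BD libraries. MCD replicate 5 and BD replicate 5 crossed, and the other libraries of the 2 diets did not. C3 fell by 0.52 ± 0.14 in MCD against BD (adjusted p = 0.0122), and HFD against BD stood at -0.27 (interval -0.57 to 0.02). Cfb, factor B, the protease of the alternative route, was at -0.21 in MCD against BD (adjusted p = 0.0694) and was called by DESeq2 alone (adjusted p = 0.02). C2 provides the protease of the classical and lectin route, and it fell by 0.42 ± 0.11 (adjusted p = 0.0101), at 111.6 ± 10.95 CPM in MCD, 128.1 ± 11.7 CPM in HFD and 149 ± 24.2 CPM in BD (SD, n = 5 each).

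C4b, which encodes C4, the partner of C2 in that protease, was called in MCD against HFD and in neither comparison with BD. It had 902, 784, 945, 949 and 1100 CPM in the MCD libraries, 1340, 1400, 1360, 1310 and 1130 CPM in the HFD libraries, and 1120, 1280, 1110, 957 and 1000 CPM in the BD libraries. HFD was highest, and its libraries did not overlap those of MCD. C4b fell by 0.49 ± 0.10 in MCD against HFD (adjusted p = 0.0177), with -0.23 for MCD against BD (adjusted p = 0.134) and 0.26 for HFD against BD (adjusted p = 0.154). The call ended without HFD replicate 1 (adjusted p = 0.0512), 3 or 4 (0.0567 each) or MCD replicate 1 (0.0535). C4a, its near-identical copy, averaged 14.0 ± 3.91 CPM in MCD, 49.6 ± 29.0 CPM in HFD and 26.2 ± 6.64 CPM in BD (SD, n = 5 each; MCD against HFD -1.83, adjusted p = 0.0246). Reads that match both copies are not in either count, so the levels of C4a and C4b are uncertain.

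The lectin route begins when mannose-binding lectins, from Mbl1 and Mbl2, bind sugars on microbes and bring the proteases from Masp1 and Masp2. Masp2, whose protease cuts C4 and C2, fell by 0.37 ± 0.10 in MCD against BD (adjusted p = 0.0135, but 0.0506 without MCD replicate 1), with 161 to 210 CPM in MCD, 209 to 280 CPM in HFD and 211 to 257 CPM in BD. Masp1 ran from 45.8 to 100 CPM in MCD, 92.2 to 121 CPM in HFD and 101 to 141 CPM in BD, and was not called for MCD against BD (-0.44, adjusted p = 0.0773), although these libraries did not overlap. Mbl1 stayed within -0.28 to 0.15 of BD in the 95% interval of the MCD difference. Mbl2 was at -0.29 (adjusted p = 0.124) and was called without MCD replicate 2 (-0.38, adjusted p = 0.0386).

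C4bp, whose protein binds C4b and lets factor I cut it, was the single member higher on either diet. It had 800, 997, 717, 722 and 751 CPM in the MCD libraries, 803, 785, 881, 834 and 871 CPM in the HFD libraries, and 630, 651, 568, 588 and 715 CPM in the BD libraries. Every MCD and HFD library lay above every BD library, in MCD by the step between 715 and 717 CPM. C4bp rose by 0.34 ± 0.10 in MCD (adjusted p = 0.02) and by 0.41 ± 0.10 in HFD (adjusted p = 0.0173) against the same BD libraries. Both calls ended without BD replicate 3 (adjusted p = 0.0613 and 0.058). Cfi, factor I itself, which inactivates C3b and C4b, averaged 772 ± 63.5 CPM in MCD, 841 ± 51.04 CPM in HFD and 852 ± 46.4 CPM in BD (SD, n = 5 each), at -0.14 for MCD against BD (interval -0.32 to 0.03).

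Of the 2 inhibitors that act in both systems, Vtn fell in MCD against BD and Serping1 did not pass. Vtn encodes vitronectin, a plasma and matrix protein that blocks the membrane attack complex. It ran from 1660 to 2340 CPM in MCD, 2390 to 2810 CPM in HFD and 2410 to 2950 CPM in BD, without overlap of MCD with either other diet (-0.38 ± 0.10 for MCD against BD, adjusted p = 0.0102; -0.27 against HFD, adjusted p = 0.136). Serping1, the C1 inhibitor, which blocks the proteases that start the classical, lectin and contact routes, was at -0.18 for MCD against BD (adjusted p = 0.196). Against HFD it stood at -0.34 (adjusted p = 0.0635), and it was called by DESeq2 (adjusted p = 0.0172) or without HFD replicate 2 (0.0404).

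**Figure D3:**
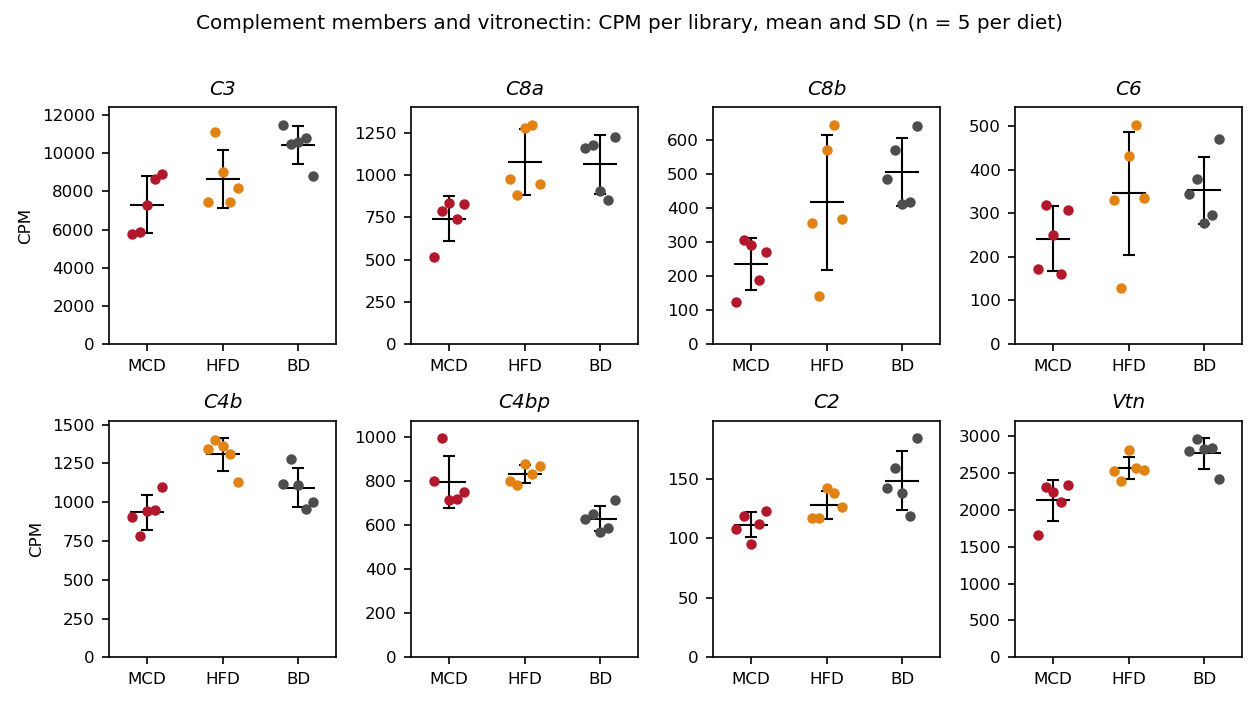
CPM per library (y axis, from 0) of 7 complement members and vitronectin (Vtn) by diet, with the mean and SD of 5 libraries. C4bp is lowest in BD, C4b is highest in HFD, and HFD replicate 2 is the low HFD point of C6 and of C8b (141 CPM).

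Set side by side, the classes were alike in direction in MCD against BD. The median log2 fold change was -0.43 over the 22 coagulation members and -0.35 over the 15 complement members, against -0.03 over all genes tested. It was -0.30 over the 9 hepatocyte markers and -0.33 over the 14 liver transcription factors described below. A lower median was thus not particular to the members. Of the coagulation members 13 (59.1%) were called lower and none higher (0 higher also at an unadjusted p under 0.05, by DESeq2 and by limma-voom), and 21 of 22 fold changes were below 0. Of the complement members 5 (33.3%) were called lower and 1 higher, and 14 of 15 were below 0. Without overlap between the diets, 14 members were lower and 1 higher, against 6.07% and 9.32% of all genes, and 15.4% in either direction. The difference between the classes was not tested. Within each class the members spread from F7 at -0.85 to F5 at 0.04 and from C8b at -1.10 to C4bp at 0.34.

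The calls against BD that held in all 24 alternative fits at the same threshold were those of Klkb1, F7, F10, Fga, Fgb, Serpinc1, Serpind1, Plg and Serpinf2, all of the coagulation class. With HFD replicate 2 and MCD replicate 3 both left out, 19 members were again lower and 1 higher in MCD than in BD. None of the 2 calls of HFD against BD and none of the 4 of MCD against HFD held in all 24. Without scaling factors 12 members were lower in MCD than in BD, and the calls of C2, C3, C8a, Masp2, Proz, Hrg and Vtn ended. Those of C2, C8a, C8b, Fgg and Cpb2 ended with the non-unique alignment term (adjusted p = 0.0832, 0.111, 0.144, 0.112 and 0.0753). The same term brought F2 and F12 under the threshold as lower (adjusted p = 0.048 and 0.0263). Non-unique alignments numbered 1.19 to 1.66 per gene count in MCD, 1.15 to 2.53 in HFD and 1.49 to 2.80 in BD. In the fit without scaling factors the median of all genes moved to 0.12 and the share of genes lower was 4.2%, against 8.64%. The factors lay between 0.943 and 1.10, below 1 in all BD libraries and above 1 in 4 of 5 MCD libraries.

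**Figure D4:**
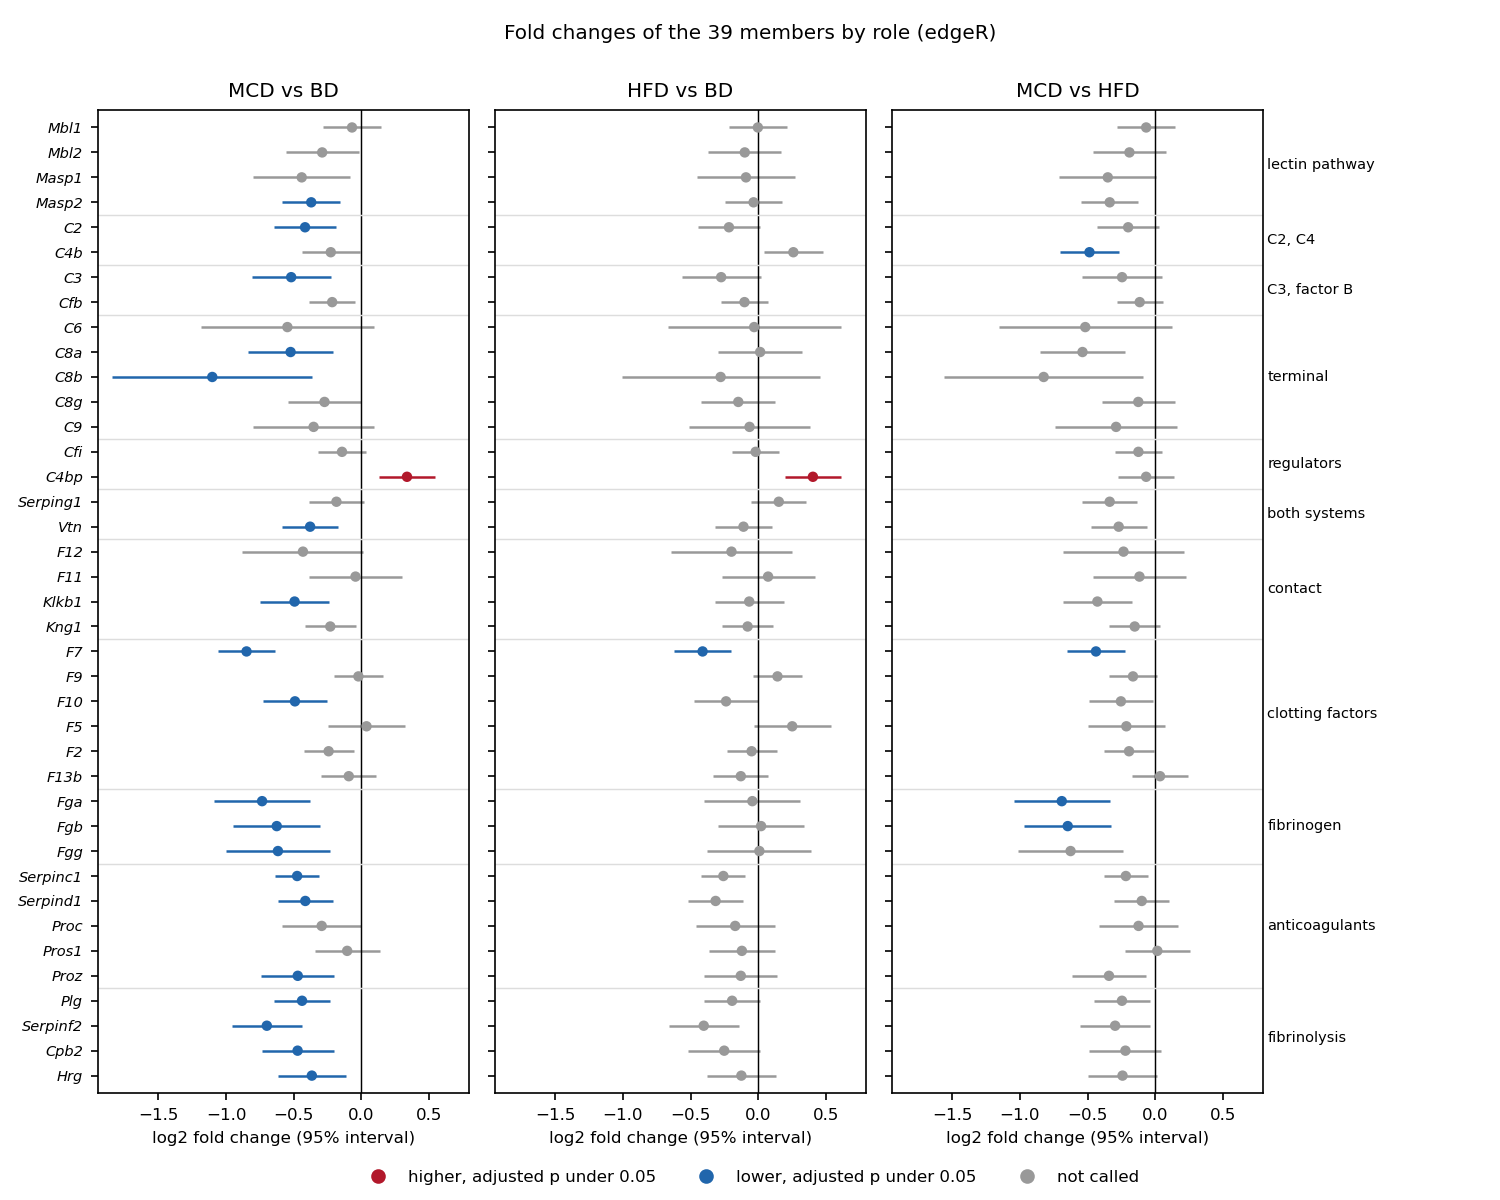
Log2 fold change with its 95% interval (x axis) of each of the 39 members, ordered by role, for MCD against BD, HFD against BD and MCD against HFD; blue marks members lower and red higher at an adjusted p under 0.05, grey the others. In MCD against BD 19 members are blue and 1 red, in HFD against BD 1 and 1, and in MCD against HFD 4 are blue.

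For HFD against BD the calls were C4bp higher, and F7 lower, of 39, each 2.56%, against 3.65% of all genes higher and 3.27% lower. The medians were -0.06 over complement and -0.13 over coagulation members, with -0.01 over all genes, and 30 of 39 fold changes were below 0. Hepatocyte markers had a median of -0.15 and liver transcription factors one of -0.0009. Serpinc1, Serpind1 and Serpinf2, all inhibitors of clotting or fibrinolytic proteases, stood just short of the threshold (adjusted p = 0.0534, 0.0567 and 0.0554). All 3 were called lower by DESeq2 (adjusted p = 0.00118, 0.0229 and 0.0294) and by limma-voom (0.0357, 0.0485 and 0.0489). Libraries did not overlap for 4 members, against 7.05% of all genes, with F7, Serpinc1 and Serpinf2 lower and C4bp higher (3.56% and 3.49% of all genes).

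For MCD against HFD, 4 members were lower (C4b, F7, Fga and Fgb, 10.3%), against 0.927% of all genes lower and 3.15% called either way. No member was higher, also at an unadjusted p under 0.05, by DESeq2 and by limma-voom. The medians were -0.24 over complement and -0.23 over coagulation members, with 0 over all genes to the second decimal, and 37 of 39 fold changes were below 0. Hepatocyte markers had a median of -0.115 and liver transcription factors one of -0.22. Libraries did not overlap for 6 members, all lower in MCD (C4b, C8a, Vtn, F7, F9 and F2), against 1.83% of all genes lower, 2.49% higher and 4.32% in either direction. The count of 4 rested on single libraries. It became 0 without HFD replicate 1, 3 or 4 or MCD replicate 1, 1 without MCD replicate 4, 2 without MCD replicate 5, and 12 without HFD replicate 2. The share of all genes lower moved with this count. It was 0.147% to 0.473% in the fits with 0 members lower and 3.31% without HFD replicate 2, against 0.927%.

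**Figure D5:**
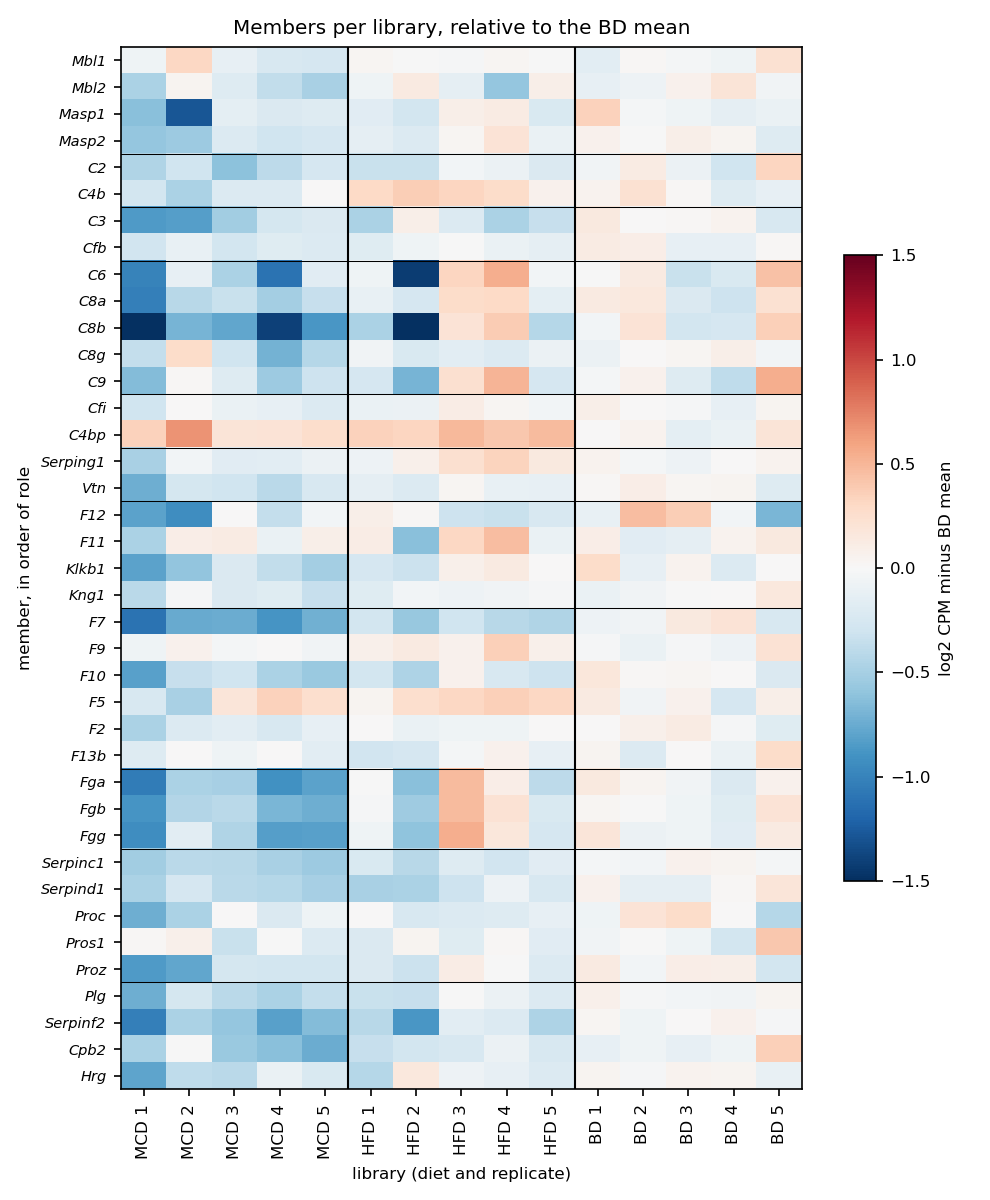
Log2 CPM minus the BD mean (colour, limited to -1.5 to 1.5) of each member (y axis, by role) in each of the 15 libraries (x axis). MCD libraries are mostly blue, MCD replicate 1 most of all, C4bp is red in MCD and HFD, and HFD replicate 2 is blue for C6, C8b and fibrinogen.

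Spread between libraries differed by member and diet. In MCD the coefficient of variation ran from 3.48% for F9 to 33.0% for C8b (median 14.6%), in HFD from 1.76% for Mbl1 to 47.7% for C8b (median 10.7%), and in BD from 3.32% for Serpinc1 to 29.4% for F12 (median 9.92%). MCD replicate 1 had the lowest MCD value for 25 of the 39 members and the highest for none. By mean level, 35 of 39 members were lowest in MCD, and 28 stood in the order MCD, HFD, BD from low to high.

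Levels per kb were taken over all annotated exons of a gene, from every transcript together. A gene with much annotated exon gets a lower value, so the ranking depends on the annotation. Serpinc1, with 8546 bp, stood at 219 CPM per kb in MCD. On this measure the most abundant members were the same few in each diet. In MCD Fgg stood at 1530, Fga at 1510, C3 at 1420, Vtn at 1050 and Fgb at 953 CPM per kb. In BD Fga stood at 2510, Fgg at 2350, C3 at 2020, Fgb at 1470 and Vtn at 1360 CPM per kb. The scarcest members on this measure were Masp1 and Pros1. Masp1, with 9833 bp of annotated exon, was at 8.36 CPM per kb in MCD and 11.4 in BD. Pros1 was at 17.1 in MCD and 18.3 in BD. Other genes overlap 7 members on the same strand and 10 on the other strand, among them C2 and Cfb (Gm20547), Masp2 (Tardbp), Serpind1 (Pi4ka) and Plg (Slc22a3), and reads shared there could have been lost or assigned to either gene.

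Other genes of the same pathways did not all follow the members. Among 20 tested secreted complement genes that were not members, 3 were lower and 5 higher in MCD than in BD. Of all genes, 8.64% were lower and 12.8% higher. Hc, which encodes C5, the entry to the membrane attack complex, averaged 903 ± 90.3 CPM in MCD, 1320 ± 243 CPM in HFD and 1410 ± 198 CPM in BD (SD, n = 5 each), and fell by 0.64 ± 0.13 against BD (adjusted p = 0.00137). Cpn2, a chain of the carboxypeptidase N that inactivates complement peptides, fell by 0.53 (adjusted p = 0.00329). The higher genes included C1qb, C1qc and C1qa, chains of the C1q complex that macrophages make, with C1qb at 70.7 ± 6.99 CPM in MCD, 56.9 ± 11.7 CPM in HFD and 38.1 ± 2.43 CPM in BD (SD, n = 5 each; 0.89 for MCD against BD, adjusted p = 6.22e-05; 0.58 for HFD, adjusted p = 0.00543). C1qc and C1qa rose by 0.79 and 0.71 (adjusted p = 0.00551 and 0.0121, the last 0.0869 with the non-unique alignment term), and these chains moved with the macrophage markers given above, whose part was not tested. In MCD against HFD, Colec11, a collectin that binds the Masp proteases, rose by 0.46 (adjusted p = 0.016, but 0.0586 without HFD replicate 4). In the same comparison Hc fell by 0.55 (adjusted p = 0.0258), a difference that missed the threshold without HFD replicate 3 or 4 or MCD replicate 1 or 4 (0.0549 to 0.0915), as did that of C4a (0.0579 to 0.074). With the non-unique alignment term Colec11, Hc and C4a were not called (0.0514, 0.124 and 0.146). C1qb was the one gene of these 20 called in HFD against BD.

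Of 10 complement receptors and membrane regulators, 6 were higher in MCD than in BD and none lower (0 also at an unadjusted p under 0.05, by DESeq2 and by limma-voom). Of all genes, 12.8% were higher and 8.64% lower in this comparison. Itgax, an alpha chain of an integrin receptor for C3 fragments, rose by 2.89 ± 0.41 (8.05 ± 3.03 CPM in MCD, 2.33 ± 1.54 CPM in HFD and 1.05 ± 0.431 CPM in BD, adjusted p = 0.000125). C3ar1 and C5ar1, the receptors of the peptides C3a and C5a, rose by 1.78 and 1.70 (adjusted p = 4.24e-05 and 0.00266). These receptor genes moved with the macrophage markers, of which 8 of 9 were higher (444 to 562 CPM in sum in MCD and 314 to 457 CPM in HFD, against 206 to 369 CPM in BD), and the part of macrophages was not tested. In HFD against BD 2 of these genes rose, C3ar1 by 1.11 (adjusted p = 0.00592, but 0.76 and 0.215 with counts thinned to one depth in all libraries) and Itgb2, the shared beta chain of the integrins, by 0.88 (adjusted p = 0.0131). In MCD against HFD 2 rose, Itgax by 1.81 (adjusted p = 0.016, but 0.0623 without HFD replicate 4) and Itgam, another integrin alpha chain, by 0.99 (adjusted p = 0.0443, but over 0.05 without any one of 11 libraries). With the non-unique alignment term neither was called (0.0669 and 0.146).

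Among 20 other coagulation and fibrinolysis genes, most of which other liver cells also express, 9 were higher and 1 lower in MCD than in BD. The shares of all genes were 12.8% higher and 8.64% lower. Plat, tissue plasminogen activator, and Anxa2, a cell-surface receptor for plasminogen and its activator, rose by 2.38 and 2.21 (adjusted p = 0.000576 and 0.00185). Plat was scarce, at 2.89 ± 1.42 CPM in MCD, 0.602 ± 0.418 CPM in HFD and 0.508 ± 0.236 CPM in BD (SD). Its HFD and BD means lay below the 0.852 CPM that 3 counts make in the shallowest library, BD replicate 1. Serpine2, protease nexin, fell by 1.498 ± 0.375 (adjusted p = 0.00987). None of these 20 was called in HFD against BD, where an unadjusted p under 0.05 marked 7 as higher and 0 as lower. DESeq2 called 1 and limma-voom 0. The shares of all genes by these measures are not given here, so the 7 cannot be read as an excess. Plat was the gene of this group called in MCD against HFD, with 2.22 ± 0.41 (adjusted p = 0.0102, but 0.0509 without HFD replicate 4).

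Of 7 genes of the vitamin K cycle and of factor secretion, Ggcx, the carboxylase that factors VII, IX, X and prothrombin need, was the one called, at 77.0 ± 4.49 CPM in MCD, 93.7 ± 15.4 CPM in HFD and 109 ± 9.64 CPM in BD (SD, n = 5 each; -0.50 for MCD against BD, adjusted p = 0.00201). Of 14 liver transcription factors, Hnf4a, a regulator of many hepatocyte genes, and Nr5a2, a nuclear receptor of bile acid and cholesterol genes, were lower in MCD than in BD, by -0.37 and -0.43 (adjusted p = 0.00778 and 0.0158). Without scaling factors neither was called (-0.23 and -0.29, adjusted p = 0.0933 and 0.123). These 1 of 7 and 2 of 14 stand beside 8.64% of all genes lower and 21.4% called. The Nr5a2 call ended without MCD replicate 1 (adjusted p = 0.0569) or BD replicate 1 (0.0587), and with the 2 diets alone (0.0541). No gene of either list was called in HFD against BD or in MCD against HFD. At an unadjusted p under 0.05, the transcription factors gave 1 higher and 1 lower in HFD against BD and 1 lower in MCD against HFD, and the vitamin K list 0 in HFD against BD and 1 higher and 2 lower in MCD against HFD. The shares of all genes at an unadjusted p are not given here, so these counts cannot be read as an excess. DESeq2 called 1 transcription factor higher in HFD against BD and, in MCD against HFD, 1 vitamin K gene higher and 1 lower; limma-voom called the same numbers of vitamin K genes and 0 transcription factors.

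Of the 18 acute phase genes outside the members, 3 were higher and 3 lower in MCD than in BD, against 12.8% and 8.64% of all genes. Saa3 and Apcs, amyloid proteins of the acute phase, rose by 1.46 and 0.54 (adjusted p = 0.000303 and 0.0199), and Lcn2, which sequesters bacterial siderophores, by 3.41 (adjusted p = 0.0462, but 1.63 and 0.176 with the non-unique alignment term). Itih3, Itih4 and Fgl1 fell by 0.65, 0.32 and 0.67 (adjusted p = 0.000216, 0.0495 and 0.0292); without scaling factors Itih4 was at -0.18 and Fgl1 at -0.54 (adjusted p = 0.27 and 0.0826). The first 2 are inter-alpha-trypsin inhibitor chains and the last is a liver protein related to fibrinogen. Single libraries ended the call of Apcs (MCD replicate 1 or BD replicate 3, adjusted p = 0.0512 and 0.0501), of Lcn2 (any MCD or BD library, 0.0533 to 0.0984), of Itih4 (12 of the 15 libraries, 0.0539 to 0.146) and of Fgl1 (MCD replicates 1, 2, 3 and 5, BD replicates 2 and 5, 0.0507 to 0.0814). Apcs was the one called in HFD against BD (0.60, adjusted p = 0.0257), and without HFD replicate 1 or 2 or BD replicate 1 or 3 its adjusted p was 0.0587 to 0.0697. In MCD against HFD Saa3 rose by 1.07 (adjusted p = 0.0181, but 0.051 to 0.0586 without HFD replicate 1, 4 or 5), and Itih3, Itih4 and Fgl1 fell by 0.65, 0.68 and 1.06 (adjusted p = 0.00437, 0.00575 and 0.0152, the last 0.0504 without MCD replicate 1).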

How the data were processed

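PolyA RNA of pulverized left liver lobe was sequenced in 15 libraries, 5 per diet, from stranded mRNA libraries, per the labels' protocols. The authors deposited whole-number read counts per gene symbol, 1 file per library, and Trimmomatic, TopHat2 (2.0.13), HTSeq and DESeq2 with GRCm38/mm10 are named in the submitters' processing notes. How reads were counted (annotation, strand, overlap mode) is not given in the sources used here. The 5 closing entries per file, which name no gene, were set aside; of these, reads outside genes were 12.7% to 17.0% and ambiguous reads 0.567% to 0.841%. Non-unique alignments numbered 1.15 to 2.80 per gene count and entered no gene.

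The test was that of edgeR 4.0.16 (R 4.3.3): TMM factors, filterByExpr by diet (minimum count 10, minimum total 15), 1 robust quasi-likelihood fit over 15 libraries, two-sided F tests, and Benjamini-Hochberg adjustment over 12193 genes, called under 0.05. The SE was taken as the absolute log2 fold change over the root of the F statistic. At the shallowest library 3 counts are 0.852 CPM and at the deepest 0.118. The 30 replicate pairs had a chi-square of 7.34 to 66.6 for each degree of freedom, beyond sampling noise, and each library was counted once. On simulated counts for MCD against BD (12108 genes), 18 of 50 genes changed 1.5-fold and 40 of 50 changed 2-fold were recovered, with 7 false among 157 calls.

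The members and lists were chosen with earlier results of these data known. Named in full, with every library, are the called members with the largest fold change, up to 8 per direction and comparison; in each of 6 lists of other pathway genes, up to 3 called genes per direction are named, except some that are not reported here. A few others are described as neighbours or near copies. Alternatives were DESeq2 1.42.0, limma-voom (limma 3.58.1), other scalings, no filter, 2 diets only, a threshold of 0.01, leaving out each library or HFD replicate 2 with MCD replicate 3, a covariate for non-unique alignments, and counts thinned to the shallowest library. Gene positions are from GENCODE M21 (GRCm38) and promoters from RefSeq (GRCm38.p6).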

Additional observations from a re-analysis of the deposited data

Results flagged for a closer look

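In 6 of 123 groups of 5 libraries (39 members and 2 class sums in 3 diets), 1 library lay far from the other 4 by Dixon's criterion, which chance gives in about 1 group in 20. Mbl1 was 235 CPM in MCD replicate 2, against 159 to 181 CPM in the other MCD libraries. F9 was 335 CPM in HFD replicate 4, against 272 to 288 CPM in the other HFD libraries. In BD replicate 5, Cpb2 was 499 CPM (357 to 373 CPM in the other BD libraries), F9 was 304 CPM (243 to 258 CPM) and Vtn was 2410 CPM (2790 to 2950 CPM). Masp1 was 141 CPM in BD replicate 1, against 101 to 109 CPM in the other BD libraries. BD replicate 5 thus held 3 of the 6 values; the calls of Cpb2 and Vtn in MCD against BD were kept when it was left out.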

How the results depend on the processing

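Over the 15 fits that each left out 1 library, members lower in MCD than in BD numbered 14 to 21 and members higher 0 to 1. In MCD against HFD 0 to 12 were lower, and in HFD against BD 0 to 4 were lower and 0 to 1 higher. Shares of all genes moved too. Without BD replicate 3, with 0 members higher, 10.4% of genes were higher in MCD than in BD, against 12.8%. In HFD against BD, 2.57% were lower without HFD replicate 2 (0 members) and 3.77% without MCD replicate 2 (4 members), against 3.27%. Shares lower in MCD than in BD in these fits are not given here. The class medians in those fits were -0.38 to -0.27 (complement) and -0.45 to -0.37 (coagulation) for MCD against BD, -0.28 to -0.18 and -0.24 to -0.16 for MCD against HFD, and -0.11 to 0.01 and -0.15 to -0.08 for HFD against BD. The complement median of HFD against BD turned to 0.01 without HFD replicate 2. The threshold of 0.01 left 9 members lower and 0 higher in MCD against BD, 0 lower in MCD against HFD, and 0 lower and 0 higher in HFD against BD. It left 4.19% of all genes lower and 7.67% higher in MCD against BD. In MCD against HFD it left 0.082% lower, and in HFD against BD 1.54% lower and 1.54% higher. Without scaling factors 12 members were lower in MCD against BD (4.2% of all genes lower) and the coagulation median was -0.29. Members lower in MCD against HFD numbered 10 with DESeq2, 2 with the 2 diets alone, 10 without both HFD replicate 2 and MCD replicate 3, and 1 with the covariate. The shares of all genes lower were 2.2%, 0.437%, 3.95% and 0.213% in the same order, against 0.927% in the main fit. Members lower in HFD against BD numbered 4 with DESeq2, 4 with limma-voom, 4 with the covariate, 0 without both libraries and 0 with thinned counts. Shares of all genes lower there were 4%, 3.31%, 4.29%, 2.59% and 2.83% in the same order, against 3.27% in the main fit. C6, not called in MCD against HFD, turned from -0.52 to 0.05 with the covariate (adjusted p = 0.928). The causes were not tested. No other class result changed by its criterion in the settings run. No paired analysis was possible because the labels give no replicate numbers that the diets share.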
